A study of Mus musculus with 15 samples.

Results

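Potassium channel genes were taken as every protein-coding gene whose symbol starts with Kcn, and 94 of the 21926 protein-coding genes in the count table met this rule. A further 5 genes with Kcn symbols had another biotype and were left out. Bulk RNA sequencing was run on bilateral 1-mm punches of the rostral ventrolateral medulla (RVLM), the brainstem region that sets sympathetic drive to the heart and vessels. The study compared mice with and without the prorenin receptor (PRR, gene *Atp6ap2*) in the RVLM, at rest and in deoxycorticosterone acetate (DOCA)-salt hypertension.

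All animals of the 4 groups were adult C57BL/6J mice carrying a floxed exon 2 of *Atp6ap2*, an X-linked gene, including the controls. WT denotes mice given AAV-GFP in the RVLM, and PRR RVLM-Null (Null in what follows) denotes mice given AAV-CRE-GFP, whose CMV promoter is not restricted to a cell type. The baseline groups (4 WT and 4 Null libraries) received no pellet and were collected 3 weeks after the virus, and their labels give the genotype PRRf/y. The DOCA-salt groups (4 WT and 3 Null libraries) carried a 50 mg DOCA pellet with 0.15 M NaCl as the only drink for 13 days, and their labels give PRRf/f. The study's methods give the sizes of the DOCA-salt groups the other way round, and the labels were followed. Baseline and DOCA-salt mice were separate cohorts. The study's methods allow at least 3 weeks for Cre expression before DOCA-salt, so the cohorts also differ in time after the virus. Cohort, time after the virus and DOCA-salt cannot be told apart. The labels do not state that each library came from its own animal, and p-values measure the spread between these libraries.

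Potassium channels let potassium leave the neuron and thereby set its resting potential, end the action potential and limit how fast it fires. Pore-forming subunits of the voltage-gated (Kv), calcium- and sodium-activated, inwardly rectifying (Kir) and tandem-pore leak (K2P) families share a selectivity filter, a short loop that passes potassium and refuses sodium. Auxiliary subunits bind these channels in the membrane or in the cytosol and change their gating and trafficking, and so-called silent Kv subunits make no channel alone but modify Kv2 channels.

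Several features of the libraries bear on every comparison below. *Atp6ap2* itself was measured at 114 to 139 CPM (read counts scaled to a common library size) in WT and 106 to 126 CPM in Null mice at baseline. On DOCA-salt it was 134 to 154 CPM in WT mice and 90.2, 89.6 and 145 CPM in Null mice, so that the library labelled Null DOCA-salt replicate 3 stood at the WT level. Neither difference passed the test (adjusted p = 0.923 at baseline and adjusted p = 0.227 on DOCA-salt, edgeR). The labels call all animals female, whereas 9 libraries showed a female and 6 a male pattern of sex-linked genes. The male pattern was seen in 1 of 4 WT and 2 of 4 Null libraries at baseline. On DOCA-salt it was seen in 1 of 4 WT and 2 of 3 Null libraries, so it was not balanced between WT and Null. The study's methods use PRRf/y, the genotype on the baseline labels, for hemizygous males. Mitochondrial ribosomal RNA was 20.3% to 28.8% of counts in the 8 baseline libraries and 2.42% to 19.1% on DOCA-salt, the highest in replicate 3 of the Null group. Markers of C1 catecholamine neurons, the defining neurons of the RVLM, summed to 15.9 to 21.9 CPM in WT mice at baseline and 91.0 to 160.7 CPM on DOCA-salt, and markers of serotonergic neurons, which lie toward the midline, to 1.61 to 7.38 CPM and 91.4 to 244 CPM. The C1 markers were *Th*, *Dbh*, *Pnmt*, *Ddc* and *Slc18a2*, of which *Ddc* and *Slc18a2* are not particular to C1 neurons. In WT mice *Ddc* was at 7.12 to 8.25 CPM at baseline and 29.0 to 64.3 CPM on DOCA-salt. *Slc18a2* was at 0.244 to 3.57 and 26.2 to 64.7 CPM. *Th* was at 0.899 to 3.01 and 6.69 to 14.9 CPM, and *Dbh* at 4.13 to 7.97 and 10.9 to 30.4 CPM. The motor neuron markers ran from 19.9 to 1296 CPM over the 15 libraries.

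The selectivity filter is the sequence that the pore-forming members have in common, and it is shown here for 7 of the 8 pore-forming genes that passed the test in a comparison below. A script translated the Gencode coding transcripts and searched for 5 codons encoding threonine or serine, then valine, isoleucine, leucine, methionine or threonine, then glycine, then tyrosine, phenylalanine or leucine, and last glycine. All 94 genes had a coding transcript. The filter was found in all 77 pore-forming genes, with 2 copies in each of the 14 K2P genes, and in none of the 17 auxiliary genes. Each run below is the coding strand, 5′ to 3′, with the 15 bases of the filter in capitals and 18 bases on either side, and coordinates of the filter on GRCm38.
Kcna3, chr3:107037611-107037625, plus strand: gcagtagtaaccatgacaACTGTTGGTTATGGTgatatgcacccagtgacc
Kcnc1, chr7:46427973-46427987, plus strand: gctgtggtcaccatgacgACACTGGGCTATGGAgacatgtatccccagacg
Kcnc2, chr10:112456229-112456243, plus strand: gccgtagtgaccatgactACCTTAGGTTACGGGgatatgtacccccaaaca
Kcnh2, chr5:24325555-24325569, minus strand: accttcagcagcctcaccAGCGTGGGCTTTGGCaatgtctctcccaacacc
Kcnt1, chr2:25894367-25894381, plus strand: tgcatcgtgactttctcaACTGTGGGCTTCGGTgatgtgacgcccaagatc
Kcns1, chr2:164164854-164164868, minus strand: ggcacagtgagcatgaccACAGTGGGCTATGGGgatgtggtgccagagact
Kcnk10, copy 1, chr12:98490058-98496199 across an intron, minus strand: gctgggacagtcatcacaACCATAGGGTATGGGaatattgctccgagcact
Kcnk10, copy 2, chr12:98440605-98440619, minus strand: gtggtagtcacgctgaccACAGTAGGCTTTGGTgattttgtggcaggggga
The fourth codon encodes tyrosine in *Kcna3*, *Kcnc1*, *Kcnc2*, *Kcns1* and the first copy of *Kcnk10*, and phenylalanine in *Kcnh2*, *Kcnt1* and the second copy of *Kcnk10*. Between pairs of these filters, 2 to 7 of the 15 bases differed. *Kcnc1* and *Kcnc2*, which both encode Kv3 subunits, differed at 6 filter bases and at 14 of the 51 bases shown, and the copies within *Kcnk10* at 5 and 29. The auxiliary members that passed a test, *Kcnip2* (chr19:45791839-45816061, minus strand) and *Kcnip3* (chr2:127456498-127522094, minus strand), have no filter.

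Of the 94 genes, 76 exceeded 1 CPM in at least 1 library and were tested, and together the 94 took 0.530% to 0.662% of the protein-coding counts of a library. The other 18 had counts in at least 1 library but stayed low, with a highest scaled value of 0.150 to 1.18 CPM over the 15 libraries (the filter used CPM before scaling). They were *Kcna7*, *Kcna10*, *Kcnh4*, *Kcnq1*, *Kcnv2*, *Kcnn4*, *Kcnj1*, *Kcnj4*, *Kcnj13*, *Kcnj15*, *Kcnk7*, *Kcnk16*, *Kcnk18*, *Kcnmb3*, *Kcne1*, *Kcne2*, *Kcne3* and *Kcnrg*. To compare genes, CPM was divided by the gene's length in kb. On this scale the RVLM punches were led by *Kcnj10*, the Kir channel of astrocytes that clears potassium, with a median of 107 CPM per kb over the 15 libraries. Also high were *Kcna1* (67.3 CPM per kb) and *Kcna2* (60.9), the low-threshold Kv1 subunits of axons, *Kcnab2* (66.9), a cytosolic beta subunit of Kv1 channels, and *Kcnk1* (39.6), a K2P subunit. The ranges of *Kcna1*, *Kcnab2* and *Kcna2* over libraries overlapped (60.3 to 92.6, 45.7 to 80.1 and 53.7 to 76.5 CPM per kb). The 8 highest genes held 52.1% of the summed level per length in the median library. The median tested Kcn gene stood at 4.73 CPM per kb, against 5.03 for all tested genes.

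By family, Kir genes held 20.2% of the summed Kcn level per length, Kv1 genes 16.6%, auxiliary genes 16.5% and Kv3 genes 15.3% (medians over libraries). K2P genes held 11.1%, led by *Kcnk1* and the acid-sensitive TASK channel gene *Kcnk9* (27.3 CPM per kb). Genes of the EAG, ERG and ELK family held 5.01%, led by *Kcnh2* (28.7 CPM per kb), which encodes the ERG channel also known from cardiac repolarization, and *Kcnh5* (7.17). Silent Kv subunits held 4.29%, led by *Kcng4* (20.9 CPM per kb) and *Kcns3* (7.28), and calcium- and sodium-activated channels 3.67%, led by the BK channel gene *Kcnma1* (12.5) and the sodium-activated channel gene *Kcnt1* (7.76). The share was 3.45% for Kv7, with the M-current gene *Kcnq3* at 11.9 CPM per kb, 2.56% for Kv4, led by *Kcnd2* (15.7) and *Kcnd3* (6.64), and 1.70% for Kv2, with *Kcnb2* at 4.19. In the Kir family *Kcnj14* (20.8 CPM per kb) followed *Kcnj10*, and in the auxiliary family *Kcnab3* (24.8) followed *Kcnab2*.

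**Figure D1:**
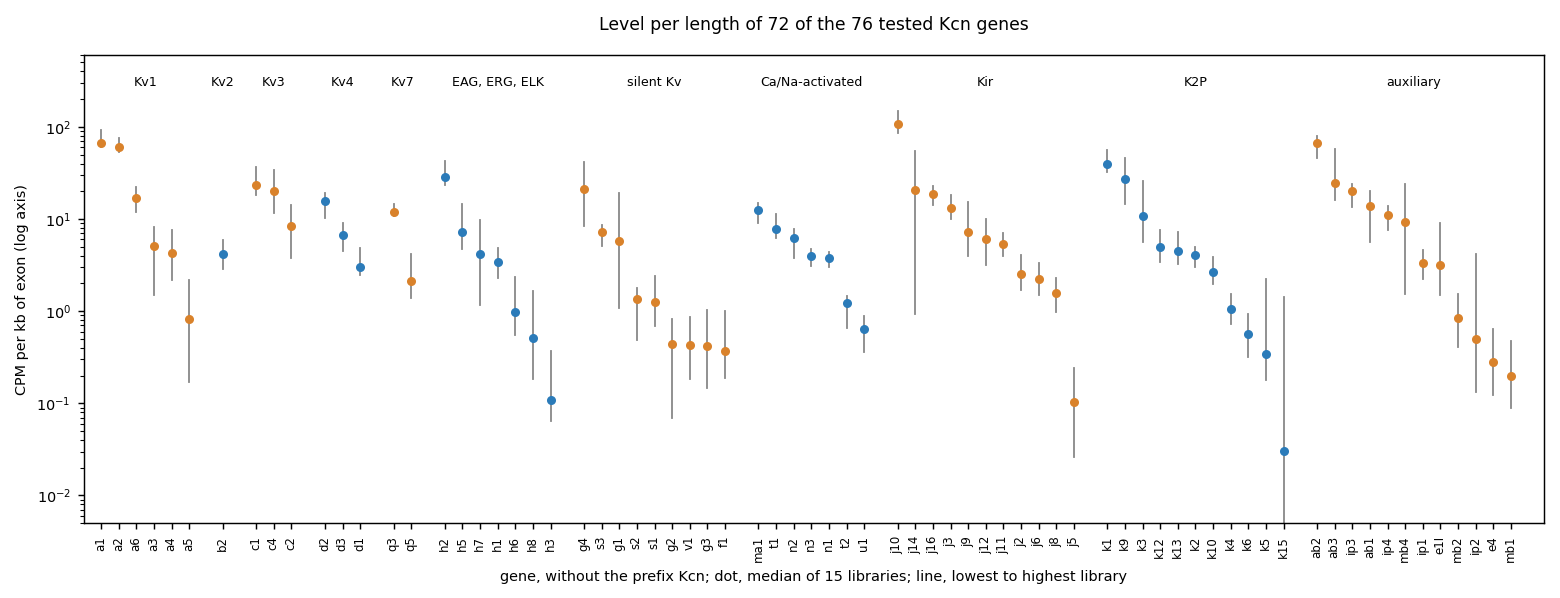
Level of 72 of the 76 tested Kcn genes in CPM per kb of gene length (log axis), grouped by family, with a point at the median of the 15 libraries and a line from the lowest to the highest library. *Kcnj10* is highest at 107 CPM per kb, and lines are short for *Kcna2* and long for *Kcnj14*. The line of *Kcnk15* is cut at the foot of the axis because some libraries held no count.

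The median Kcn gene varied more between libraries of a group than the median of all tested genes. The biological coefficient of variation, edgeR's estimate of the relative spread between replicates, had a median of 0.223 for the 76 Kcn genes and 0.153 for all tested genes. It exceeded 0.4 for 11 of the 76 (against 7.52% of all tested genes), among them *Kcnk15*, *Kcnj14*, *Kcnk5*, *Kcnmb4*, *Kcng1*, *Kcnip2*, *Kcna5*, *Kcnh7*, *Kcnj5* and *Kcne1l*. At the other end, *Kcnn1*, *Kcna2* and *Kcnq3* had values from 0.108 to 0.110.

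DOCA-salt was first compared with baseline in WT mice, in which Cre was not given. This is a difference between separate cohorts, in which DOCA-salt cannot be told apart from cohort and time after the virus. The single genes that passed as higher were *Kcna3*, *Kcnq5*, *Kcnc1*, *Kcnc2*, *Kcnh2*, *Kcnt1* and the Kv4 auxiliary gene *Kcnip2*. Those that passed as lower were *Kcns1*, a silent Kv subunit, and *Kcnip3*, another Kv4 auxiliary gene. With edgeR, 9 of the 76 tested Kcn genes passed an adjusted p of 0.05, 7 higher and 2 lower, or 11.8% of them, and 11.6% of all tested genes passed (5.48% higher and 6.12% lower), so that the share of Kcn genes lay near that of all genes. The median log2 change was 0.05 over the Kcn genes and -0.00 over all tested genes. With library totals in place of TMM factors the split was 12 higher and 1 lower, and the median over all genes moved to 0.12 and over Kcn genes to 0.17. Of the 9, *Kcna3* and *Kcnip2* differed by at least 2-fold (2.17% of all genes did so and passed). In bulk tissue, fewer cells of a type and less RNA per cell cannot be told apart.

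The count of 9 rested on few libraries. It was 2 without WT baseline replicate 1, 5 without WT baseline replicate 2 or 3 or WT DOCA-salt replicate 2, and 4 without WT DOCA-salt replicate 3. Leaving out the 3 libraries with the least motor neuron marker RNA (WT DOCA-salt replicates 2 and 3 and Null baseline replicate 2), an alternative added with the data in view, none of the 76 passed with edgeR (13 at an unadjusted p under 0.05), and 1.24% of all genes did. With the sex pattern as a term 7 passed, without *Kcnc2* (adjusted p = 0.0534) and *Kcnip2* (adjusted p = 0.0624). The direction of all 9 stayed the same in that setting. In the same comparison 5 of 5 C1 markers and 4 of 4 serotonergic markers rose and 3 of 4 red blood cell markers fell (summed 37.0 to 76.5 CPM at baseline and 13.4 to 19.2 CPM on DOCA-salt), and 2 of 5 markers of all neurons, *Snap25* and *Syt1*, rose. Among glial and vascular markers, 1 of 5 for astrocytes (*Gfap*) and 1 of 3 for choroid plexus and ependyma (*Kl*) rose, and 1 of 5 for microglia (*P2ry12*) and 2 of 5 for pericytes and smooth muscle (*Vtn* and *Acta2*) fell. No motor neuron, oligodendrocyte or endothelial marker passed. The motor neuron markers nonetheless summed to 901 to 1296 CPM at baseline and 46.3 to 869 CPM on DOCA-salt in WT mice, without overlap. The part of these shifts in the Kcn results was not tested.

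*Kcna3* encodes a Kv1 delayed rectifier that is also used by lymphocytes and microglia. It was measured at 5.59, 8.06, 5.69 and 7.13 CPM in WT mice at baseline and at 15.7, 15.2, 14.4 and 9.71 CPM on DOCA-salt. The groups were separate, with replicate 4 the lowest on DOCA-salt. The log2 change was 1.05 (SE 0.32, adjusted p = 0.0462), and the exact permutation test gave p = 0.0286, its minimum for groups of this size. This call was at the edge of the threshold. It was lost without any 1 of the 8 baseline libraries or without WT DOCA-salt replicate 1, 2 or 3 (adjusted p = 0.0529 to adjusted p = 0.115), while the log2 change stayed between 0.94 and 1.20 over 28 alternatives (adjusted p from 0.00379 to 0.267).

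*Kcnq5* encodes a Kv7 subunit of the M-current, the slow current that muscarinic receptors close and that dampens repetitive firing. It stood at 11.1, 14.6, 13.9 and 16.4 CPM at baseline and at 26.0, 31.9, 29.2 and 16.4 CPM on DOCA-salt in WT mice. Replicate 4 on DOCA-salt met the highest baseline library, from which it was separate by less than the printed digits. The log2 change was 0.89 (SE 0.21, adjusted p = 0.0149, exact permutation p = 0.0286). Leaving out WT baseline replicate 1 raised the adjusted p to 0.0502 and leaving out WT DOCA-salt replicate 2 to 0.0518, and adjusted p ranged from 0.00114 to 0.20 over the alternatives. *Kcnq3*, another M-current gene, differed by 0.21 on the log2 scale (adjusted p = 0.166) and did not pass. Antisense gene *Gm26580* shares 237 of the 7689 exon bases of *Kcnq5*, and the strand setting of the counting is not given in the sources used here.

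*Kcnc1* and *Kcnc2* encode Kv3 subunits, which open at depolarized potentials and let neurons fire at high rates. *Kcnc1* was at 172, 193, 176 and 179 CPM in WT mice at baseline and at 209, 343, 312 and 221 CPM on DOCA-salt, with separate groups and replicates 2 and 3 highest. It rose, with a log2 change of 0.59 (SE 0.16, adjusted p = 0.0246, exact permutation p = 0.0286). *Kcnc2* was at 33.1, 59.5, 40.8 and 51.1 CPM at baseline and at 78.1, 101, 59.4 and 68.9 CPM on DOCA-salt, with overlap at the third DOCA-salt and the second baseline library. It rose by 0.74 (SE 0.22, adjusted p = 0.0446), with an exact permutation p = 0.0571. Of the 4 Kv3 genes these 2 passed, both higher. The *Kcnc1* call was lost without WT baseline replicate 1 or 3 or WT DOCA-salt replicate 2 or 3 (adjusted p = 0.0615 to adjusted p = 0.0848, range 0.00372 to 0.361 over all alternatives). The *Kcnc2* call was lost without any 1 of 10 libraries, namely WT baseline replicate 1, 3 or 4, any Null baseline library, or WT DOCA-salt replicate 1, 2 or 4 (adjusted p = 0.0516 to adjusted p = 0.141, range 0.0103 to 0.215).

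*Kcnt1* encodes the sodium-activated channel that follows bursts of spikes with a slow hyperpolarization, and had the smallest p of the Kcn genes in WT mice. Its level was 70.1, 65.6, 64.4 and 58.5 CPM at baseline against 73.7, 91.8, 99.9 and 109 CPM on DOCA-salt. All 4 DOCA-salt libraries lay above all baseline libraries, and the log2 change was 0.53 (SE 0.11, adjusted p = 0.00893, exact permutation p = 0.0286). *Kcnh2* ran from 114 to 130.2 CPM at baseline and from 142 to 207 CPM on DOCA-salt, again without overlap, and rose by 0.51 (SE 0.12, adjusted p = 0.0130, exact permutation p = 0.0286). Both calls were kept in 27 of 28 alternatives and lost only without the 3 libraries named above. There, adjusted p was 0.116 for *Kcnt1* (lowest over the alternatives 0.000319) and 0.212 for *Kcnh2* (lowest 0.00101), and the log2 change of *Kcnh2* went from 0.51 to 0.30.

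*Kcnip2* and *Kcnip3* encode calcium-binding proteins that attach to Kv4 channels and govern the A-type current. *Kcnip2* was low, at 0.489, 1.38, 1.27 and 1.78 CPM at baseline against 1.35, 2.54, 15.2 and 2.48 CPM on DOCA-salt in WT mice, so that a single library stood far above the rest and the groups overlapped. The log2 change of 2.14 (SE 0.66, adjusted p = 0.0465, exact permutation p = 0.0857) became 0.80 (adjusted p = 0.291) without that library, WT DOCA-salt replicate 3, and the call held in 11 of 28 alternatives (adjusted p from 0.0051 to 0.537). It was lost as well without any 1 of the 8 baseline libraries or Null DOCA-salt replicate 1 or 3 (adjusted p = 0.0515 to adjusted p = 0.123), with limma voom (adjusted p = 0.109) and with only the compared groups in the fit (adjusted p = 0.0939). *Kcnip3*, also known as the transcriptional repressor DREAM, was at 83.6, 84.9, 78.6 and 76.8 CPM at baseline and at 60.3, 64.8, 50.1 and 52.2 CPM on DOCA-salt, without overlap. *Kcnip3* fell, with a log2 change of -0.51 (SE 0.14, adjusted p = 0.0302, exact permutation p = 0.0286), a call lost without WT baseline replicate 1, 2 or 3 or WT DOCA-salt replicate 3 or 4 (adjusted p = 0.0576 to adjusted p = 0.0970, range 0.00847 to 0.0970). It was lost as well with library totals in place of TMM factors (adjusted p = 0.0643) and with no filter on low counts (adjusted p = 0.0682).

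*Kcns1* encodes a silent subunit that joins Kv2 channels. It was at 3.63, 4.40, 2.77 and 3.65 CPM in WT mice at baseline and at 2.05, 2.13, 1.87 and 1.99 CPM on DOCA-salt. The DOCA-salt libraries were close to each other and all below baseline, and *Kcns1* fell, with a log2 change of -0.84 (SE 0.22, adjusted p = 0.0248, exact permutation p = 0.0286). Without WT baseline replicate 1 or 2 or WT DOCA-salt replicate 2 or 3 the adjusted p was 0.0521 to 0.0733, and with no filter 0.0523 (range 0.0110 to 0.154 over all alternatives). Among 9 tested silent subunits it was the only one to pass in WT mice.

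**Figure D2:**
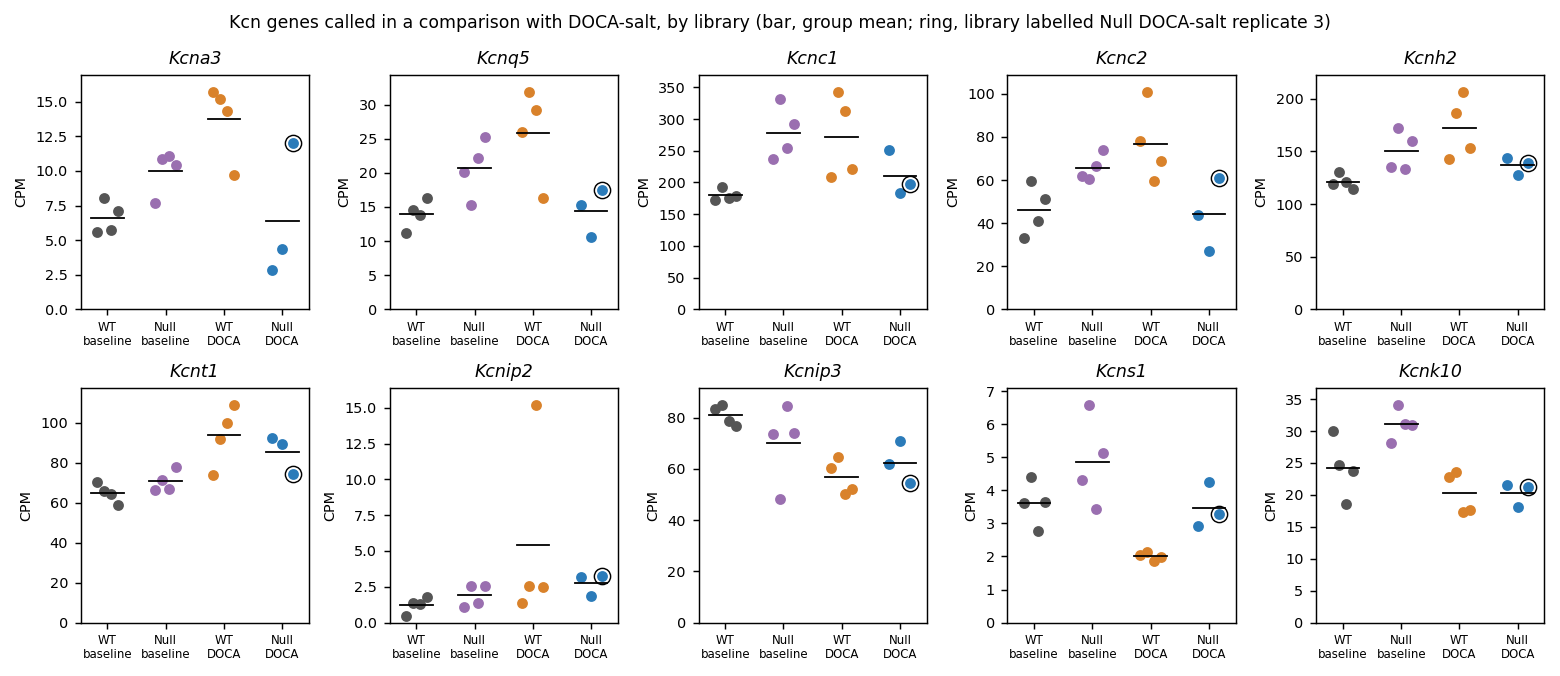
CPM (linear axes from 0) of the 10 Kcn genes that passed an adjusted p of 0.05 in a comparison, by group, 1 point for each library with a bar at the group mean, and a ring around the library labelled Null DOCA-salt replicate 3. In *Kcnip2* 1 WT DOCA-salt library stands at 15.2 CPM, and *Kcna3* ranges from 2.87 to 12 CPM in Null mice on DOCA-salt.

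The other functional groups gave few calls in WT mice. None of the 4 GIRK genes, the G-protein-gated Kir channels that opioid and adrenergic receptors open, passed, although *Kcnj9* was nearest to the threshold. It ran from 17.0 to 30.6 CPM at baseline and from 31.2 to 58.0 CPM on DOCA-salt, without overlap (log2 change 0.81, adjusted p = 0.0507, exact permutation p = 0.0286, adjusted p 0.0118 to 0.178 over the alternatives). None of the 3 TASK, 4 ATP-sensitive (with their *Abcc8* and *Abcc9* subunits), 4 tested BK, 3 tested SK, 3 TREK and TRAAK, 5 low-threshold Kv1 or 2 astrocyte Kir genes passed. For the astrocyte pair the log2 change was -0.17 for *Kcnj10* (adjusted p = 0.452) and -0.34 for *Kcnj16* (adjusted p = 0.0673). Among 10 A-type genes, *Kcnip2* was higher and *Kcnip3* lower, and the Kv4 pore genes *Kcnd1*, *Kcnd2* and *Kcnd3* did not pass (log2 changes of -0.30, 0.01 and -0.41, that of *Kcnd2* turning below 0 in 6 of 28 alternatives). Over all Kcn genes 41 of 76 (53.9%) had a positive log2 change, near the 49.9% of all tested genes. In the families with at least 6 tested genes these were 5 of 6 Kv1 genes, 4 of 7 of the EAG, ERG and ELK family, 5 of 7 calcium- and sodium-activated, 4 of 9 silent Kv, 4 of 11 Kir, 4 of 11 K2P and 7 of 12 auxiliary genes.

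In Null mice, DOCA-salt against baseline gave 1 Kcn gene of 76 at an adjusted p of 0.05 with edgeR, while 6.46% of all tested genes passed (2.69% higher and 3.77% lower). It was *Kcnk10*, which encodes TREK-2, a K2P leak channel opened by stretch, warmth and fatty acids. *Kcnk10* was at 28.1, 34.1, 31.2 and 30.9 CPM at baseline and at 21.5, 18 and 21.3 CPM on DOCA-salt in Null mice, without overlap. The log2 change was -0.62 (SE 0.15, adjusted p = 0.0309), with an exact permutation p = 0.0286. In WT mice the same gene was at 18.5 to 30.0 CPM at baseline and 17.4 to 23.5 CPM on DOCA-salt (log2 change -0.26, adjusted p = 0.254). The call was lost without Null baseline replicate 2, 3 or 4 or Null DOCA-salt replicate 1 or 2 (adjusted p = 0.0655 to adjusted p = 0.0787, range 0.00561 to 0.0930 over the alternatives), with limma voom (adjusted p = 0.0930) and with only the compared groups in the fit (adjusted p = 0.0510). The *Kcnk10* call was lost as well with the sex pattern as a term and without Null DOCA-salt replicate 3, and without the 3 libraries low in motor neuron markers. In this comparison 2 of 4 serotonergic and 1 of 5 C1 markers rose (sums of 1.65 to 4.79 and 14.7 to 42.7 CPM at baseline, then 10.2 to 75.9 and 26.9 to 59.8 CPM). The highest DOCA-salt value of both sums was that of Null replicate 3. In addition *Mobp* of oligodendrocytes rose, and 2 of 4 red blood cell markers and 1 of 5 for pericytes and smooth muscle (*Vtn*) fell. *Ttr* of the choroid plexus also passed as higher, but through a single library. It was at 0.041, 59.0 and 0.282 CPM in Null DOCA-salt replicates 1, 2 and 3. The part of all these markers in the Kcn results was not tested. Without the 3 libraries low in motor neuron markers, 2 Kcn genes passed in Null mice (3.41% of all tested genes), *Kcne1l* higher and *Kcnd2* lower. The difference between the WT and Null changes of *Kcnk10* was -0.36 on the log2 scale (SE 0.21, adjusted p = 0.408).

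No Kcn gene passed as higher in Null mice, where 2.69% of all tested genes did. An unadjusted p under 0.05 was found for 14 Kcn genes (18.4%, against 25.8% of all tested genes). *Kcnd2*, a Kv4 pore of the A-type current, was at 73.2 to 90.3 CPM at baseline and at 53.1, 62.3 and 66.7 CPM on DOCA-salt (log2 change -0.46, adjusted p = 0.0649). *Kcna6*, a Kv1 subunit, was at 112 to 124 CPM at baseline and at 96.9, 73.5 and 89.6 CPM on DOCA-salt (log2 change -0.43, adjusted p = 0.0777). Both had separate groups, as had 6 Kcn genes in the lower direction (11.1% of all tested genes did) and 0 in the higher (9.38%). The median log2 change was -0.10 over the Kcn genes and 0.02 over all tested genes. Of the 7 genes that rose in WT mice, *Kcnt1* and *Kcnip2* had a positive and the other 5 a negative log2 change in Null mice, where none of the 7 passed. The same split was not counted over all genes that rose in WT mice, so it only describes these 7. Over all Kcn genes 32 of 76 (42.1%) lay above 0, against 53.0% of all tested genes. They were 1 of 6 Kv1 genes, 1 of 7 of the EAG, ERG and ELK family, 4 of 7 calcium- and sodium-activated, 2 of 9 silent Kv, 5 of 11 Kir, 5 of 11 K2P and 10 of 12 auxiliary genes in the families with at least 6 tested.

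**Figure D3:**
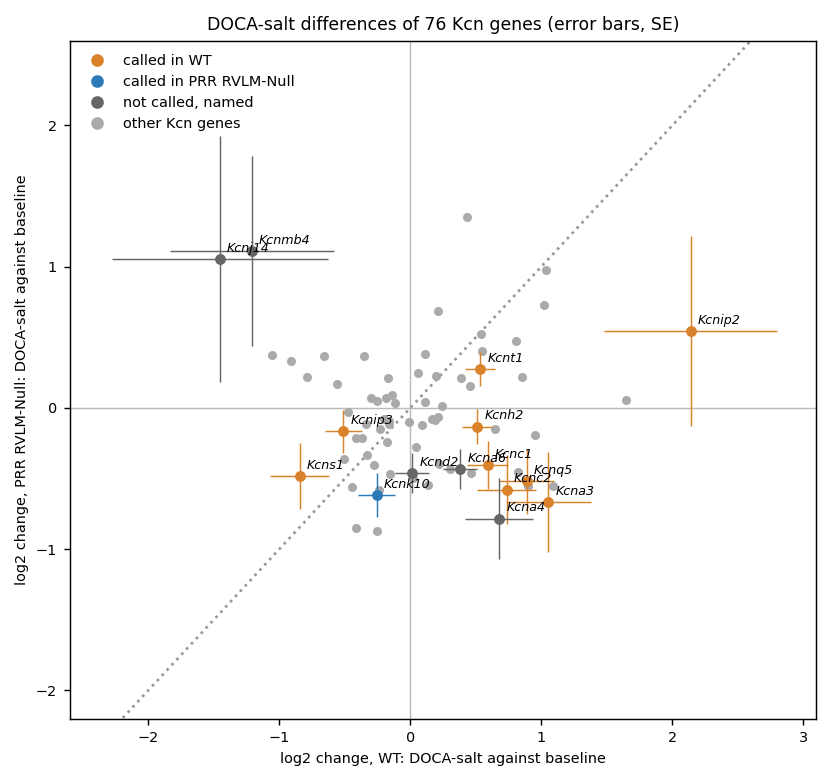
Log2 change on DOCA-salt against baseline in WT mice (horizontal axis) and in Null mice (vertical axis) for the 76 tested Kcn genes, 1 point for each gene, with the genes that passed in either comparison and 5 others named, error bars of 1 SE on named genes, and a dotted line of equal change. *Kcnq5*, *Kcna3*, *Kcnc1*, *Kcnc2* and *Kcnh2* lie right of 0 and below 0, *Kcnip3* and *Kcns1* lie below 0 on both axes, and *Kcnk10*, the gene that passed in Null mice, lies at -0.62 on the vertical axis.

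At baseline, Null mice were compared with WT mice to ask what the Cre virus alone changed. No Kcn gene and none of all tested genes (0.0%) passed with edgeR, nor with DESeq2 or limma voom, and 13 Kcn genes had an unadjusted p under 0.05 (17.1%, against 10.1% of all tested genes). The 3 Kcn genes with the smallest p were all higher in Null mice without passing the test. *Kcnc1* was at 236, 332, 254 and 293 CPM in Null mice, above the 172 to 193 CPM of WT mice (log2 difference 0.63, SE 0.16, adjusted p = 0.434). *Kcna6* was at 113, 119, 112 and 124 CPM against 70.9 to 102 CPM (0.41, SE 0.13). *Kcnj6*, a GIRK subunit, was at 18.1, 25.2, 19.9 and 25.6 CPM against 13.3 to 17.0 CPM (0.57, SE 0.19). Groups were separate for all 3 (exact permutation p = 0.0286 each, the smallest possible), as for 6 Kcn genes in the higher direction (3.89% of all tested genes) and 1, *Kcnab1*, in the lower (4.39%). The motor neuron markers also differed without overlap, at 19.9 to 759 CPM in Null and 901 to 1296 CPM in WT mice, although none of the 4 tested passed, and their part was not tested. For each of the 3 Kcn genes, adjusted p was 0.434 and stayed between 0.0771 and 0.793 over the alternatives.

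On DOCA-salt, Null mice were compared with WT mice, and the difference between the DOCA-salt changes of Null and WT mice was tested as an interaction. These comparisons share libraries with those above. No Kcn gene passed between the groups on DOCA-salt with edgeR (0.0202% of all tested genes did), and 19 had an unadjusted p under 0.05 (25.0%, against 14.4% of all tested genes). DESeq2 gave 2, *Kcnq5* and *Kcnc2*, and the likelihood ratio test 1, *Kcnq5*, while limma voom gave 0. *Kcnq5* was at 15.3, 10.6 and 17.4 CPM in Null mice on DOCA-salt, with 2 of the 3 libraries below all 4 WT libraries (log2 difference -0.84, SE 0.23, adjusted p = 0.150, range 0.0243 to 0.892). *Kcns1* was at 2.91, 4.25 and 3.27 CPM, above all WT libraries on DOCA-salt (0.79, SE 0.23, adjusted p = 0.169, range 0.0823 to 0.868). *Kcnc2* was at 44.0, 27.0 and 61.2 CPM, with the last of these inside the WT range (-0.80, SE 0.24, adjusted p = 0.175, range 0.0464 to 0.876). The exact permutation test of 4 against 3 libraries cannot go below 0.0286. In the same libraries C1 markers summed to 26.9 to 59.8 CPM in Null and 91.0 to 160.7 CPM in WT mice, and serotonergic markers to 10.2 to 75.9 and 91.4 to 244 CPM, without overlap, and no marker passed the test here or in the interaction. The part of these markers in either comparison was not tested.

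For the interaction no Kcn gene passed with edgeR (0.512% of all tested genes did), 19 had an unadjusted p under 0.05 (25.0%, against 16.8%), and DESeq2 gave 7, the likelihood ratio test 7 and limma voom 1. The smallest p values belonged to *Kcnq5* (-1.41 on the log2 scale, SE 0.31, adjusted p = 0.0547), *Kcnc1* (-0.996, SE 0.23, adjusted p = 0.0640) and *Kcna6* (-0.81, SE 0.19, adjusted p = 0.0661), each with a lower log2 change on DOCA-salt in Null than in WT mice. Over 27 alternatives adjusted p ran from 0.00207 to 0.301 for *Kcnq5*, from 0.00372 to 0.486 for *Kcnc1* and from 0.00587 to 0.497 for *Kcna6*. Both DESeq2 and the likelihood ratio test called *Kcna3*, *Kcna4*, *Kcna6*, *Kcnc1*, *Kcnc2*, *Kcnh2* and *Kcnq5*, all negative. *Kcnq5*, *Kcnc1* and *Kcna6* also passed with edgeR without WT DOCA-salt replicate 1 (adjusted p = 0.0495, 0.0329 and 0.0454) or replicate 4 (adjusted p = 0.0168, 0.0341 and 0.0383). Without the 3 libraries low in motor neuron markers the count was 0, as it was for Null against WT mice on DOCA-salt.

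These comparisons were sensitive to the library labelled Null DOCA-salt replicate 3, whose *Atp6ap2* level was that of WT mice on DOCA-salt. Null and WT libraries also overlapped in *Atp6ap2* at baseline. Replicate 3 further differed from replicates 1 and 2 in its mitochondrial ribosomal RNA (19.1%) and its female pattern. Its serotonergic markers summed to 75.9 CPM, against 10.2 and 10.3 CPM in replicates 1 and 2. Its C1 markers summed to 59.8 CPM, against 30.2 and 26.9 CPM. The part of these markers in the sensitivity was not tested. *Kcna3* shows the sensitivity most plainly, at 2.87 and 4.32 CPM in replicates 1 and 2 and 12 CPM in replicate 3, beside 9.71 to 15.7 CPM in WT mice on DOCA-salt. With that library the log2 difference of *Kcna3* from WT was -1.12 (adjusted p = 0.184) and the interaction -1.72 (adjusted p = 0.0998). Without it they were -1.93 (adjusted p = 0.00362) and -2.53 (adjusted p = 0.00226). Leaving it out, *Kcna3* and *Kcnc2* were lower in Null than in WT mice on DOCA-salt (1.14% of all tested genes passed). *Kcna3*, *Kcna4*, *Kcnc2* and *Kcnq5* passed in the interaction (2.31%), all negative, and *Kcna3*, *Kcna4*, *Kcnc2* and *Kcnk10* were lower on DOCA-salt than at baseline in Null mice (10.7%). *Kcna4*, an A-type Kv1 subunit, was at 12.5 and 10.5 CPM in the remaining libraries and 20.8 CPM in replicate 3, against 19.4 to 37.1 CPM in WT mice on DOCA-salt. The 2 libraries that remain both show the male pattern. When a term for the sex pattern was added too, an alternative made with the data in view, 5 Kcn genes passed between the groups on DOCA-salt (3.43% of all tested genes), among them *Kcna3*, *Kcna4*, *Kcnh6* and *Kcnq5*, all 4 lower, and 7 in the interaction (4.58%).

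Some Kcn genes had their extreme values in the 3 libraries with the least motor neuron marker RNA. The summed CPM of *Chat*, *Slc18a3*, *Slc5a7*, *Isl1* and *Mnx1*, which mark cholinergic motor neurons such as those of the nucleus ambiguus and the cranial nerves, was 1296, 1283, 1175 and 901 in WT and 759, 19.9, 694 and 296 in Null mice at baseline. On DOCA-salt it was 869, 125, 46.3 and 567 in WT and 325, 1205 and 378 in Null mice. The 3 lowest libraries were thus Null baseline replicate 2 and WT DOCA-salt replicates 2 and 3.

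These 3 libraries were also the 3 lowest for *Kcnj14*, a Kir channel, for *Kcnmb4*, the neuronal BK auxiliary subunit, and for *Kcnab1*, a Kv1 beta subunit. *Kcnj14* was at 2.51 to 9.39 CPM in them and 15 to 151 CPM in the other 12, *Kcnmb4* at 5.06 to 9.34 and 9.75 to 79.1 CPM, and *Kcnab1* at 62.8 to 93.2 and 109 to 227 CPM. The same 3 libraries were the 3 highest for *Kcnc1* (312 to 343 CPM against 172 to 293), *Kcnh2* (172 to 207 against 114 to 159.6) and the silent subunit gene *Kcnf1* (2.71 to 4.79 against 0.899 to 2.48). These 6 genes were chosen after their values were seen, and 1.76% of all tested genes had their 3 lowest and 1.07% their 3 highest values in these libraries. WT DOCA-salt replicates 2 and 3 are among them. The log2 change of *Kcnc1* in WT mice was 0.59 with and 0.26 without the 3 libraries (adjusted p = 0.361), and that of *Kcnq5* 0.89 and 0.60 (adjusted p = 0.20). Those of *Kcnt1* (0.53 and 0.50), *Kcnip3* (-0.51 and -0.52), *Kcns1* (-0.84 and -0.83), *Kcnc2* (0.74 and 0.68) and *Kcna3* (1.05 and 0.94) moved less. For *Kcnc1* and *Kcnh2* a smaller change was fixed in advance, because these libraries were their 3 highest. The log2 change of *Kcnip2* went as low as 0.66 over all alternatives. The part of motor neuron content in these changes was not tested.

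**Figure D4:**
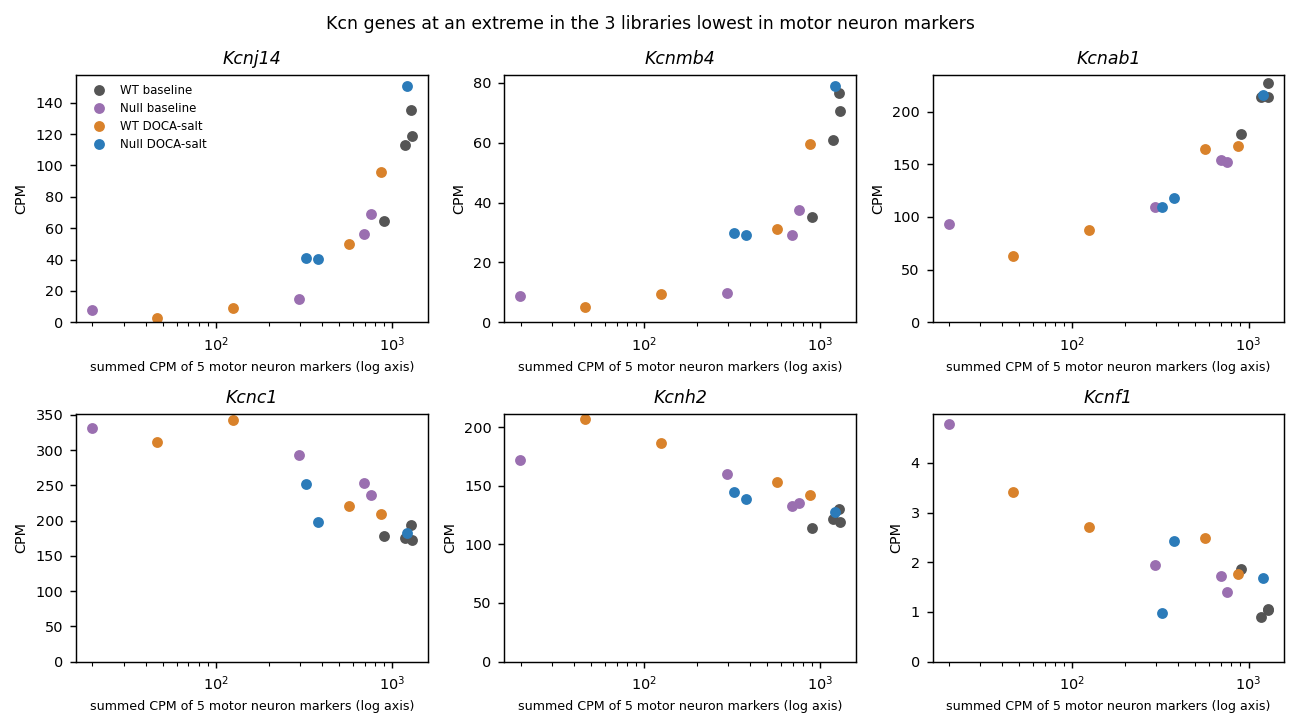
CPM of *Kcnj14*, *Kcnmb4*, *Kcnab1*, *Kcnc1*, *Kcnh2* and *Kcnf1* (vertical linear axes from 0) against the summed CPM of 5 motor neuron markers (horizontal log axis), 1 point for each of 15 libraries, coloured by group. The 3 libraries between 19.9 and 125 CPM of marker RNA are lowest in the first 3 genes and highest in the last 3.

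Genes outside the Kcn family that partner its channels or carry potassium were counted in the same fit. Of 13 channel partners 11 were tested. In WT mice on DOCA-salt 1 of the 11 rose (5.48% of all tested genes did) and in Null mice 3 fell (3.77%). *Lrrc55*, a gamma subunit that lets BK channels open at more negative potentials, rose in WT mice on DOCA-salt and fell in Null mice, and its interaction passed. No channel partner passed between Null and WT mice at baseline or on DOCA-salt. *Lrrc55* was at 5.59, 7.09, 5.92 and 7.94 CPM in WT and 9.93, 17.1, 12.2 and 13.2 CPM in Null mice at baseline, and at 9.80, 15.1, 11.2 and 11 CPM and 8.21, 5.45 and 9.25 CPM on DOCA-salt. All 4 WT libraries were higher on DOCA-salt than at baseline and all Null libraries lower. The log2 change was 0.83 in WT mice (adjusted p = 0.0180, range 0.00253 to 0.166), -0.78 in Null mice (adjusted p = 0.0450, range 0.0145 to 0.149) and the interaction -1.61 (adjusted p = 0.0302, range 0.000187 to 0.301). The BK pore gene *Kcnma1* differed by -0.16 and -0.09 (adjusted p = 0.501 and 0.748).

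Also lower on DOCA-salt in Null mice were *Dpp10*, a membrane partner of Kv4 channels (-0.56, adjusted p = 0.0394), and *Cntnap2*, which clusters Kv1 channels beside the node of Ranvier (-0.53, adjusted p = 0.0426). In WT mice neither passed (log2 changes of 0.01 and 0.21). Of 11 pumps and cotransporters for potassium, *Slc12a2*, the sodium-potassium-chloride cotransporter, fell in WT mice by 0.44 on the log2 scale (adjusted p = 0.0187, range 0.00345 to 0.107), and none passed in the other comparisons. This 1 of 11 (9.09%) is set beside 11.6% of all tested genes that passed in WT mice.

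DOCA acts on mineralocorticoid receptors, and the RefSeq promoter windows of GRCm38.p6, from 250 bases before to 50 after the start, were searched on both strands for short motifs, as a description. A window was given for 54 of the tested Kcn genes, among them 9 of the 10 that passed a test, and for 11476 tested genes in all. The steroid receptor core site AGAACA lay in 9 of 54 Kcn windows (16.7%) and in 15% of all windows, and among the genes that passed in those of *Kcnc2* and *Kcnk10*. The GC box GGGCGG lay in 68.5% of Kcn windows and 66.9% of all. The cAMP response element TGACGTCA lay in 0 of the 54 and in 3.46% of all windows.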

How the data were processed

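RNA was measured by bulk sequencing of RVLM punches in 15 libraries of 4 groups, which were taken from the labels. The authors made stranded SMART-seq libraries and aligned reads with STAR to Gencode vM23 (GRCm38.p6), and the counting program and strand setting are not given in the sources used here. The table that the authors deposited holds raw counts per gene, whole numbers without normalization, for 55421 genes. Other deposited tables hold the authors' RPKM, log2 fold changes and false discovery rates of their comparisons, and were not used. Depth ran from 19053970 to 30504796 counts per library, which limits precision for genes of few counts.

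Of 21926 protein-coding genes, the 14852 that exceeded 1 CPM in any library were scaled by TMM factors and fitted in R 4.3.3 with edgeR 4.0.16 (quasi-likelihood, 1 term per group, all 15 libraries). Benjamini-Hochberg adjustment ran over all genes tested, and a gene passed at 0.05 or less. Each SE is the log2 change divided by the root of its F statistic. The filter used CPM over all counts of a library. Single genes also had a two-sided exact permutation test of the mean log2(CPM + 0.1), run with scipy 1.17.1. Levels in the text are CPM computed from tested genes after TMM scaling, divided by the length column of the table where genes are compared. All 94 genes were found in Gencode vM21 (GRCm38), the source of spans and coding transcripts.

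The named genes were those that passed in any comparison (values per library for up to 6 in each direction), the 3 smallest p values where none passed, the 2 highest per length in each family, and members of the functional and partner lists. Some of these members, and some sequences, are not reported here. Genes and lists were chosen with earlier results of these data known. Alternatives were DESeq2 1.42.0, limma 3.58.1 voom with quality weights, the likelihood ratio test, other scaling and filters, every biotype, fits of the compared groups alone, a replicate block, a sex-pattern term, a 2-fold limit, and leaving out each library. Added after the data were seen were the sex pattern without Null DOCA-salt replicate 3, and leaving out the 3 libraries lowest in motor neuron markers. Replicates were checked for duplicate libraries, and none was found (smallest chi-square per degree of freedom 5.48). On simulated counts for WT mice on DOCA-salt against baseline (14852 genes), 74% of 100 planted 2-fold and 98% of 100 planted 4-fold changes were recovered, with 4 false calls.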

Additional observations from a re-analysis of the deposited data

Results flagged for a closer look

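The *Kcnip2* level of WT DOCA-salt replicate 3, 15.2 CPM, lay far from the other 3 libraries of its group (1.35 to 2.54 CPM). Its gap to the nearest of them took 0.914 of the range of the group, above Dixon's critical value for 4 libraries. It was the only such case among the 36 groups of libraries tested for 12 named genes, and about 1 in 20 groups would be marked by chance. The same library was low in motor neuron markers (46.3 CPM). Its part in the value was not tested.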

How the results depend on the processing

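The genes that passed, or had the 3 smallest p values where none did, kept their direction in those comparisons under every alternative. Others near 0 did not. In WT mice on DOCA-salt *Kcnd2* (0.01) reached -0.21, *Dpp10* (0.01) -0.05, *Cntnap2* (0.21) -0.07 and *Kcnj10* (-0.17) 0.0017, and in Null mice *Kcnip2* (0.54) reached -0.36 and *Kcnma1* (-0.09) 0.01. In WT mice on DOCA-salt 9 Kcn genes passed, against 14 with DESeq2, 23 with limma voom, 2 with the 2-fold limit, 0 without the 3 libraries low in motor neuron markers, and 2 to 12 leaving out 1 library. In Null mice 1 passed, against 3 with DESeq2, 0 with limma voom, 2 with the likelihood ratio test, 0 with only the groups compared, 0 with the 2-fold limit, 6 with the sex pattern and without the library labelled Null DOCA-salt replicate 3, 2 (*Kcne1l* higher, *Kcnd2* lower) without the 3 libraries, and 0 to 4 leaving out 1 library. It was 0 without Null baseline replicate 3 or 4 or DOCA-salt replicate 1 or 2, 2 without WT DOCA-salt replicate 4 and 4 without Null DOCA-salt replicate 3. *Kcnk10* was not among the 6 genes, nor did it pass without the 3 libraries. Between the groups on DOCA-salt 0 passed, against 2 with DESeq2, 1 with the likelihood ratio test, 5 with the sex pattern and without replicate 3, and 0 to 2 leaving out 1 library (2 without WT DOCA-salt replicate 4 or Null DOCA-salt replicate 3). In the interaction 0 passed, against 7 with DESeq2, 1 with limma voom, 7 with the likelihood ratio test, 5 with library totals, 4 without a filter, 7 with the sex pattern and without replicate 3, and 0 to 4 leaving out 1 library (4 without WT DOCA-salt replicate 1, 3 without replicate 4, 4 without Null DOCA-salt replicate 3). The cause of these differences was not tested. At baseline 0 passed under every alternative.

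Replicate numbers did not pair libraries: 9 of 21 same-numbered pairs had a correlation of deviations above 0.1, with a mean of 0.0104, against -0.0029 for other pairs. With the replicate number as a block, 7 Kcn genes passed in WT mice on DOCA-salt (4 higher and 3 lower), 1 in Null mice and 0 elsewhere. The calls of *Kcna3*, *Kcnc2*, *Kcnip2* and *Kcnip3* in WT mice were lost with it (adjusted p = 0.0506, 0.0683, 0.0832 and 0.0539). Genes near 1 CPM, such as *Kcnip2*, are limited by depth.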

Other observations

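A pair of Kcn genes, chosen after their values were seen, was high in 4 libraries spread over 3 groups. *Kcnk5*, an alkaline-sensitive K2P channel, was at 4.09 CPM in Null baseline replicate 2, 3.32 CPM in WT DOCA-salt replicate 4, and 7.63 and 3.61 CPM in Null DOCA-salt replicates 1 and 3. Its other 11 libraries held 0.616 to 1.54 CPM. *Kcnk15*, a K2P subunit, was at 2.62, 1.22, 2.87 and 1.18 CPM, in the same 4 libraries, against 0.648 CPM or less in the others. Neither gene passed in a comparison (the smallest adjusted p was 0.218, for *Kcnk5* on DOCA-salt in Null mice, edgeR).

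*Kcnh7*, an ERG channel gene, and *Kcne1l*, an auxiliary gene on the X chromosome, also spread widely. *Kcnh7* ran from 17.7 to 149 CPM, with its lowest value in Null DOCA-salt replicate 2 and its highest in WT DOCA-salt replicate 3. *Kcne1l* was at 13.8 CPM in Null baseline replicate 2 and DOCA-salt replicate 1, 10.2 CPM in DOCA-salt replicate 3 and 2.34 to 6.81 CPM in the rest.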
